A study of Homo sapiens with 9 samples.

Results

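The 46 genes described here act in G2 and mitosis. They encode cyclins and their kinase CDK1, other mitotic kinases, the spindle checkpoint, the anaphase machinery, kinetochore and spindle proteins and proteins of cytokinesis. The rule that chose them lists names and uses no measured value, but they were chosen with earlier results of these data known. All 46 were found by symbol among the 61544 genes of the count files. The levels were measured by RNA-Seq in H1975, a human lung adenocarcinoma cell line labelled as epithelial. All 9 libraries came from cells given si78, an siRNA against the 3′ UTR of the endogenous GRP78 transcript, and 24 h later a plasmid for 48 h. The plasmid was empty pcDNA3 (vector), FLAG-tagged GRP78 (WT) or FLAG-tagged GRP78 in which 3 lysines of the nuclear localization signal were changed to alanine (NLS Mut), with 3 libraries in each of the 3 groups. GRP78 is a chaperone of the endoplasmic reticulum that can also enter the nucleus, and the comparison of WT with NLS Mut asks which transcripts depend on its nuclear form. No cells without si78 were analysed here, the sources used here do not give the share of cells that took up a plasmid, and the labels do not say whether the 3 libraries of a group came from separate cultures, so p-values measure only the spread between these libraries.

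A cell leaves G2 when cyclin A2 and the B cyclins activate CDK1, and PLK1 and the Aurora kinases then help to build the spindle. Chromosomes attach to the spindle through kinetochores, and the checkpoint proteins hold back CDC20 and the anaphase-promoting complex until every chromosome is attached. Sister chromatids are then separated, and a ring of actin and myosin divides the cell. Most of these transcripts are scarce in G1 and peak in G2 and mitosis, under transcription factors such as FOXM1, MYBL2 and NF-Y. In a bulk sample a smaller share of cells in G2 and mitosis and less RNA per cell cannot be told apart.

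Each library had 17671055 to 27476298 reads counted on genes, without normalization, and the 46 genes took 0.398% to 0.468% of them. Levels are given as CPM, the reads of a gene scaled to a fixed total per library by TMM, a normalization that holds the bulk of genes equal between libraries. edgeR's quasi-likelihood test was run on the 18653 genes with enough counts, all 9 libraries entering the same fit, and a gene was called at a Benjamini-Hochberg adjusted p under 0.05. HSPA5, the gene of GRP78, was at 359, 383 and 391 CPM in the vector libraries, 5031, 5814 and 6145 with WT and 4962, 5156 and 4765 with NLS Mut. Every GRP78 library, meaning WT or NLS Mut, was far above every vector library. The counts do not separate its plasmid from its endogenous transcripts. The 7 lung epithelial markers, such as EPCAM and KRT18, were present in every library at 4370 to 5180 CPM in sum, whereas 3 of 5 fibroblast, 2 of 5 immune and 2 of 4 endothelial markers, among them DCN and CD3E at 0 reads, were under 1 CPM in every library. The others were present, with COL1A1 at 172 to 228 CPM, PDGFRB at 6.82 to 11.6, CSF1R at 14.7 to 21.5 and CD14 at 4.69 to 9.43. Summed fibroblast markers were at 204 to 222 CPM with vector, 211 to 239 with WT and 181 to 189 with NLS Mut, and summed immune markers at 29.8 to 30.7, 24.01 to 26.8 and 21.3 to 27.0. The part of this in the results was not tested. Libraries also differed in how their counts followed GC content. For every 10 points of GC percentage, the log2 deviation from the mean library changed by -0.05, 0.11 and 0.12 in vector replicates 1, 2 and 3, and by -0.08 to 0.03 in the 6 other libraries.

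All 46 genes passed the filter on low counts, but 2 of them were almost uncounted. NUSAP1, which bundles spindle microtubules, had 1 to 29 reads per library, and PRC1, which crosslinks the central spindle, had 0 to 21. In the GENCODE 29 annotation, 62.2% of the exonic bases of NUSAP1 and 58.4% of those of PRC1 lie in a second gene on the same strand, which had 0 and 45 to 90 reads per library. How far this overlap sets the low counts was not tested. Both are left out of the ranges and of the figures that show single genes, which cover the other 44, and their fold changes are not described. They stay in the counts and medians over 46 genes. Without them, 43 of the 44 had a log2 fold change above 0 with NLS Mut and 31 with WT against vector. Between WT and NLS Mut, 38 were lower with WT. The scarcest of the 44 was SPC25, with 100 to 205 reads per library. Counting ignored strand, and for FOXM1, PLK1, CDC25C, KIF2C, CCNA2 and HMMR the sum of both strand-specific counts was 1.19 to 1.53 times the unstranded count, and a gene on the other strand overlaps each of them. Their levels are uncertain, as are those of BUB1B, which shares 10.2% of its exonic bases with the readthrough gene BUB1B-PAK6, and CENPA, which shares 6.96% with SLC35F6.

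Against vector, the mitosis genes were mostly higher with NLS Mut, and 3 of them passed the test. ANLN, an actin-binding scaffold of the cytokinetic ring, rose by 0.31 on the log2 scale, KIF11, the kinesin that pushes the spindle poles apart, by 0.31, and KIF18A, the kinesin that damps chromosome movement at the metaphase plate, by 0.40. Of the 46 genes 44 had a log2 fold change above 0, with a median of 0.17, or 12.6%, against -0.0017 over all 18653 genes tested. The 3 higher calls stand beside 0.295% of all genes called higher in this comparison, and no member was called lower, beside 0.499% of all genes. At an unadjusted p under 0.05, 22 members were higher and 0 lower, while 6.13% of all genes were higher and 6.03% lower. The libraries of both groups did not overlap for 17 members, all higher with NLS Mut, and for 9.28% of all genes in that direction and 8.82% in the other.

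With WT no member was called against vector by edgeR in either direction, where 0.214% of all genes were called higher and 0.343% lower. The median log2 fold change was 0.07, or 5.27%, against -0.0023 over all genes, with 32 members above and 14 below 0. At an unadjusted p under 0.05, 6 members were higher and 0 lower (all genes: 5.19% higher, 6.52% lower), and 9 did not overlap with vector, all higher (all genes: 6.53% higher, 6.54% lower). With DESeq2, another count test, 0 members were called and 7 were higher at an unadjusted p under 0.05, where 1.13% of the genes it adjusted were called higher. The comparisons of WT and of NLS Mut with vector share the vector libraries and are not independent.

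Between WT and NLS Mut, 39 members were lower and 7 higher with WT. The median log2 fold change was -0.12, or -7.71%, against -0.0054 over all genes tested. No member was called by edgeR, where 0.30% of all genes were called higher and 0.204% lower. At an unadjusted p under 0.05, 10 members were lower and 0 higher, beside 6.0% and 5.55% of all genes, and 13 did not overlap, all of them lower with WT, beside 9.42% of all genes lower and 8.25% higher. With DESeq2 1 member, KIF11, was called lower (all genes: 1.05%), and against vector 7 members were called higher with NLS Mut (all genes: 2.02%). Those were ANLN, KIF11, KIF18A, BUB1, CCNB1, MKI67 and TOP2A. The 95% interval of a member's log2 fold change reached a median of 0.17 to either side in each comparison. These intervals are not adjusted for the number of genes tested, so a change of that size need not be called. With NLS Mut against vector, BUB1 at 0.26 and CENPE at 0.29 were not called by edgeR.

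**Figure D1:**
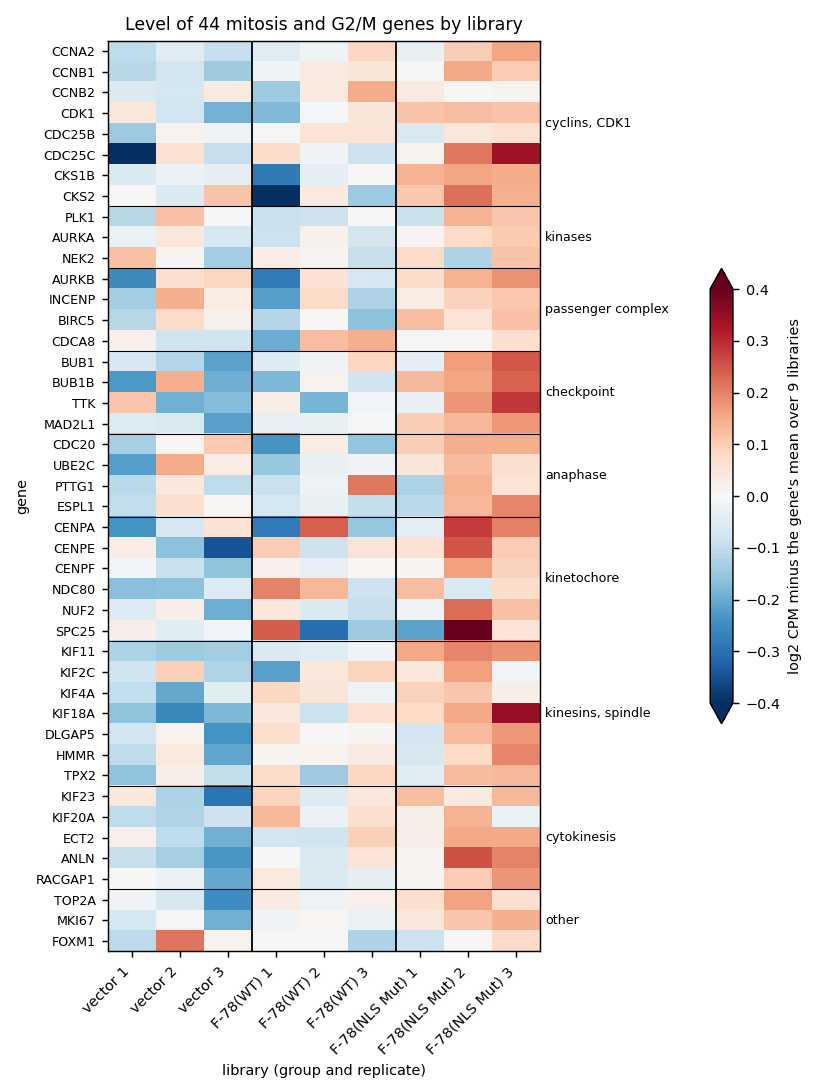
Level of each of 44 mitosis and G2/M genes (rows, grouped by role) in each of the 9 libraries (columns), as log2 CPM minus the gene's mean over the 9 libraries; the colour scale ends at 0.4 to either side. NLS Mut replicates 2 and 3 are above the mean for most genes, and vector replicates 1 and 3 are below it for most.

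**Figure D2:**
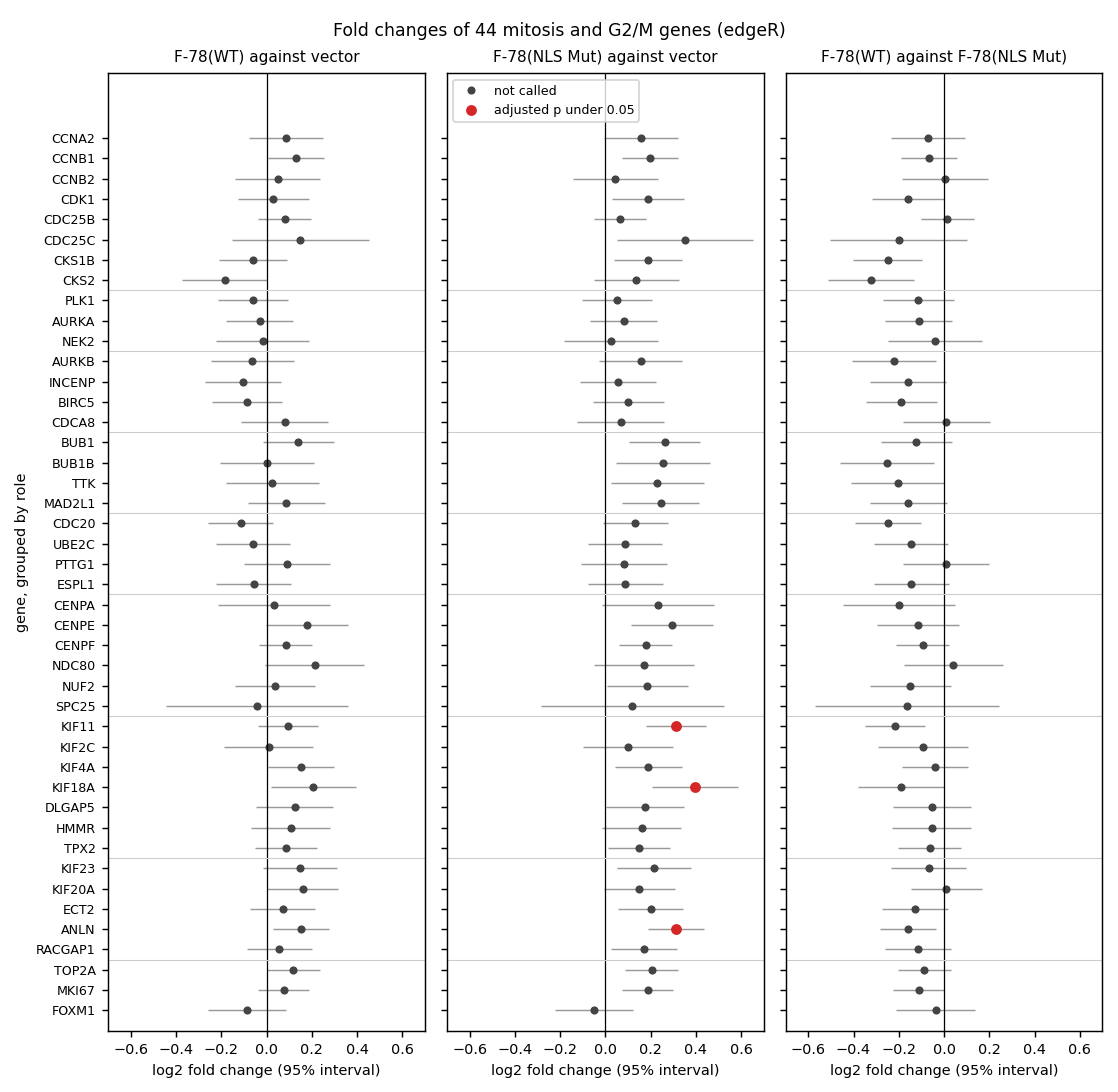
Log2 fold change (horizontal axis) of each of 44 mitosis and G2/M genes in the 3 comparisons, with 95% intervals as lines; genes are grouped by role, and red points were called by edgeR at an adjusted p under 0.05. The 3 red points are KIF11, KIF18A and ANLN against vector with NLS Mut, and 43 of the 44 points of that panel lie right of 0, FOXM1 being the exception.

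The starts of many of these genes carry 2 elements known from G2/M promoters. One is the CHR (cell cycle genes homology region), with the letters TTTGAA or TTTAAA, where complexes that silence the gene in G1 and activate it later bind. The other is the CCAAT box, the element of NF-Y. RefSeq (GRCh38.p14) gave a window from 250 bases before to 50 bases after the start for 39 of the 46 genes, and each motif was searched on both strands in all windows of a gene. TTTGAA or TTTAAA was in a window of 35 of the 39 genes (89.7%), against 27.9% of 27305 genes and 21.3% of the 12151 tested genes with a window. It started within 60 bases before the start in 26 (66.7%), against 6.85% of the 27305. CCAAT was in 33 (84.6%), against 39.7%, and both kinds stood together in 28 (71.8%), against 11.2%. The 7 stretches that follow are the 75 bases directly before the RefSeq start of the 3 called genes and of CCNB1, CCNB2, PLK1 and MKI67, which are classical G2/M genes, each from 5′ to 3′ on the gene's own strand. Capitals mark the CCAAT and CHR letters found on either strand. The reverse complement of CCAAT reads ATTGG, that of TTTGAA reads TTCAAA, and TTTAAA reads the same on both strands.
ANLN (chr7:36389787-36389861, plus strand): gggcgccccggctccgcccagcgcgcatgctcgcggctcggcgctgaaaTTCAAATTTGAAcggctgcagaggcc
KIF11 (chr10:92593055-92593129, plus strand): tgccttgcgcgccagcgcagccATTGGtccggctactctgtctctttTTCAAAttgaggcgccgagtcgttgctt
KIF18A (chr11:28108157-28108231, minus strand): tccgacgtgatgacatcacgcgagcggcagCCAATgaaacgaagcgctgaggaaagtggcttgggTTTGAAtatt
CCNB1 (chr5:69167075-69167149, plus strand): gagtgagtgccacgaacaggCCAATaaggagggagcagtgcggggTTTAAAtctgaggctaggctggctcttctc
CCNB2 (chr15:59105071-59105145, plus strand): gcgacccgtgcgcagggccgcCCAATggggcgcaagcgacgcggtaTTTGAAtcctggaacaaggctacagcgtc
PLK1 (chr16:23678814-23678888, plus strand): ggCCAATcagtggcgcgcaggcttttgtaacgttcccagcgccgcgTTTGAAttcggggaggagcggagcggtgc
MKI67 (chr10:128126424-128126498, minus strand): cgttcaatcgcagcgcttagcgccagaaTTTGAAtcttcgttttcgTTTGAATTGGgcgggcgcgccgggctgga

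In 5 of the 7, KIF11, CCNB1, CCNB2, PLK1 and MKI67, a CHR match began 28 to 30 bases before the start. ANLN held a pair of TTTGAA matches, 1 on each strand, 26 and 20 bases before it, and no CCAAT in its window. In MKI67 the nearer TTTGAA overlaps an ATTGG. KIF18A held its match 10 bases before the start, and the CCAAT of KIF11, CCNB1 and CCNB2 stood 53 to 55 bases before it. The 24 counted genes with a match within 60 bases had a median log2 fold change of 0.18 with NLS Mut against vector. It was also 0.18 for the 13 counted genes without such a match. Some of the 13 held the letters elsewhere in a window, such as CENPE and CDC20 at 62 and 65 bases before the start. The split therefore cannot show whether the element goes with the fold change. These matches are letters in a window and not measured binding.

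Cyclins, CDK1 and their regulators drive entry into mitosis. With edgeR none of the 8 passed the test in any comparison, whereas CCNB1 was called higher with NLS Mut than with vector by DESeq2 (0.20, adjusted p = 0.029). Their edgeR median log2 fold changes were 0.06 with WT and 0.17 with NLS Mut against vector, and -0.12 between WT and NLS Mut. CCNB1, cyclin B1, was at 143, 147 and 140.4 CPM in the vector libraries, 153, 159 and 160.2 with WT and 155, 172 and 166 with NLS Mut. Every GRP78 library was above every vector library, and both GRP78 groups overlapped. The log2 fold change was 0.20 ± 0.06 (SE, edgeR adjusted p = 0.13) with NLS Mut and 0.13 (adjusted p = 0.39) with WT against vector, and -0.07 between both. CCNA2, cyclin A2, likewise did not overlap with vector in either GRP78 group (0.09 with WT and 0.16 with NLS Mut). CDK1, the kinase that cyclins A and B activate, was at 74.7, 68.6 and 63.4 CPM in the vector libraries, 64.02, 71.9 and 74.8 with WT and 78.3, 78.8 and 78.3 with NLS Mut. The NLS Mut libraries were above the other 6, which overlapped, with a log2 fold change of 0.19 against vector (95% interval 0.03 to 0.35, adjusted p = 0.29), and of 0.07 (adjusted p = 0.77) after a correction for GC content.

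CKS1B and CKS2 are small subunits that bind CDK1. CKS2 was at 56.7, 54.3 and 61.2 CPM in the vector libraries, 42.1, 58.2 and 51.1 with WT and 61.01, 65.9 and 62.5 with NLS Mut, lowest in the WT group and with replicate 1 of that group lowest of all. WT and NLS Mut did not overlap, and the log2 fold change between them, -0.32 ± 0.09 (SE, edgeR adjusted p = 0.11), was the lowest of the 44 genes. CKS1B was at 77.4, 79.3 and 78.5 CPM in the vector libraries, 66.4, 78.5 and 80.7 with WT and 88.8, 89.9 and 89.4 with NLS Mut. Here all NLS Mut libraries were above the other 6, and the log2 fold changes were 0.19 against vector (adjusted p = 0.27) and -0.25 for WT against NLS Mut (adjusted p = 0.13). CCNB2, cyclin B2, stayed within a narrow range, at 36.1, 35.9 and 38.6 CPM in the vector libraries, 34.1, 38.7 and 41.7 with WT and 38.6, 37.6 and 37.9 with NLS Mut. Its groups overlapped in each comparison, and its log2 fold changes against vector had 95% intervals of -0.14 to 0.24 with WT and -0.14 to 0.23 with NLS Mut. CDC25B, a phosphatase that removes the inhibitory phosphates of CDK1, was at 282, 315 and 309 CPM in the vector libraries, 310.2, 323 and 323 with WT and 299, 322 and 325 with NLS Mut. Its groups overlapped in each comparison (log2 fold changes 0.08 with WT and 0.06 with NLS Mut against vector, 0.02 between them), and its coefficient of variation over the 9 libraries, 4.55%, was the lowest of the 44 genes. The related CDC25C was scarce, at 8.82, 13.1 and 11.8 CPM in the vector libraries, 13.2, 12.4 and 11.9 with WT and 12.7, 14.6 and 15.9 with NLS Mut. Its log2 fold change of 0.35 with NLS Mut against vector was the second highest of the 44 genes, but its groups overlapped and its 95% interval ran from 0.05 to 0.65 (adjusted p = 0.31).

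The mitotic kinases PLK1, AURKA and NEK2, which act on centrosomes and the spindle, had the lowest median with NLS Mut against vector of the 9 roles, 0.05. Their log2 fold changes lay between -0.06 and -0.02 with WT and between 0.03 and 0.08 with NLS Mut against vector, and no pair of groups was apart for any of them. PLK1 was at 78.3, 91.9 and 84.5 CPM in the vector libraries, 79.5, 79.8 and 84.9 with WT and 79.6, 93.2 and 91.3 with NLS Mut. The vector libraries alone spanned nearly the whole range of this gene, and its log2 fold changes were -0.06 with WT and 0.05 with NLS Mut against vector and -0.11 between them (adjusted p = 0.82, 0.85 and 0.61, edgeR). AURKA, Aurora A, was at 67.1, 70.5 and 65.04 CPM in the vector libraries, 64.3, 69.2 and 64.9 with WT and 68.8, 72.2 and 73.5 with NLS Mut. Against vector, AURKA differed by -0.03 on the log2 scale with WT and by 0.08 with NLS Mut (95% interval -0.07 to 0.23), and its coefficient of variation, 4.84%, was the second lowest. NEK2, which separates the centrosomes, was at 33.3, 30.9 and 27.8 CPM in the vector libraries, 31.2, 30.9 and 28.7 with WT and 32.3, 28.2 and 33.2 with NLS Mut. Both extremes were vector libraries, and the 95% intervals against vector were -0.22 to 0.19 with WT and -0.18 to 0.23 with NLS Mut.

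The chromosomal passenger complex (AURKB, INCENP, BIRC5 and CDCA8) corrects faulty attachments at centromeres and later acts in cytokinesis. None of its 4 genes was called. INCENP, its scaffold, was at 67.03, 81.5 and 75.3 CPM in the vector libraries, 63.2, 77.6 and 67.6 with WT and 75.1, 78.6 and 79.4 with NLS Mut. All groups overlapped, and vector replicate 2 was the highest library. The log2 fold change with WT against vector was -0.10 ± 0.08 (SE, edgeR adjusted p = 0.69), with NLS Mut 0.06, and between both -0.16. CDCA8, or borealin, was at 41.1, 38.4 and 38.3 CPM in the vector libraries, 35.3, 44.2 and 44.8 with WT and 40.3, 40.7 and 42.5 with NLS Mut. Its lowest and highest values were both in the WT group, and its log2 fold change between WT and NLS Mut was 0.01 (95% interval -0.18 to 0.20). For AURKB, Aurora B, and BIRC5, survivin, every WT library was below every NLS Mut library, with log2 fold changes of -0.22 and -0.19 (adjusted p = 0.31 and 0.31, edgeR).

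The spindle checkpoint delays anaphase while kinetochores are unattached, and its 4 genes, BUB1, BUB1B, MAD2L1 and TTK, had the highest median with NLS Mut of the 9 roles, 0.25 or 18.9% above vector. With WT the median was 0.06, and between WT and NLS Mut it was -0.18. All 4 had an unadjusted p under 0.05 against vector with NLS Mut, and none was called by edgeR. BUB1B, the kinase-like subunit that binds CDC20, was at 30.1, 39.1 and 30.8 CPM in the vector libraries, 31.1, 35.6 and 33.4 with WT and 38.6, 39.4 and 41.5 with NLS Mut. Vector replicate 2 reached the NLS Mut libraries, so these groups overlapped, whereas all WT libraries were below all NLS Mut libraries. The log2 fold change against vector was 0.25 ± 0.10 (SE, edgeR adjusted p = 0.28) with NLS Mut and 0.0011 with WT. BUB1, a kinase that recruits the others to kinetochores, was above vector in every library of both GRP78 groups (0.14 and 0.26), and TTK, the MPS1 kinase that starts the checkpoint signal, overlapped throughout. MAD2L1, whose product holds CDC20 inactive, was ordered by group without overlap, at 43.2, 43.02 and 38.6 CPM in the vector libraries, 43.9, 43.99 and 44.6 with WT and 48, 49.2 and 50.5 with NLS Mut. Its log2 fold changes against vector were 0.09 with WT (adjusted p = 0.75) and 0.24 with NLS Mut (adjusted p = 0.18).

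The anaphase-promoting complex ends the checkpoint by marking securin and cyclin B for destruction, with CDC20 as its activator and UBE2C as its ubiquitin-conjugating enzyme. Securin (PTTG1) holds back separase (ESPL1), which cuts the cohesin rings. CDC20 was at 131, 145 and 155 CPM in the vector libraries, 122, 147 and 129 with WT and 154, 159 and 159 with NLS Mut. Both GRP78 groups overlapped with vector but not with each other, and WT was below NLS Mut by a log2 fold change of -0.25 ± 0.07 (SE, edgeR adjusted p = 0.11). Against vector it was -0.11 with WT and 0.13 with NLS Mut. Of 12 alternative fits on all libraries, 6 called CDC20 lower with WT than with NLS Mut. It was called higher with NLS Mut than with vector in 2 of them, both with a GC correction. UBE2C was likewise lower in every WT library than in any NLS Mut library (log2 fold change -0.15, adjusted p = 0.51), while PTTG1 and ESPL1 overlapped in all comparisons.

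At centromeres and kinetochores, 6 genes were measured, and none was called by edgeR with all libraries. CENPE, a kinesin that carries chromosomes to the metaphase plate, was at 59.1, 51.7 and 45.6 CPM in the vector libraries, 62.2, 54.7 and 60.02 with WT and 60.3, 68.9 and 62.2 with NLS Mut. NLS Mut was above vector in all libraries, by a log2 fold change of 0.29 ± 0.09 (SE, edgeR adjusted p = 0.12), though its lowest library exceeded the highest vector library by little, and by 0.18 (adjusted p = 0.31) after GC correction. NDC80, which binds microtubules, was at 21.99, 22.03 and 23.8 CPM in the vector libraries, 28.3, 27.04 and 23.3 with WT and 26.9, 23.6 and 25.98 with NLS Mut. Its log2 fold change with WT against vector, 0.21, was the highest of the 44 genes in that comparison, with overlapping groups and a 95% interval of -0.0062 to 0.43 (adjusted p = 0.44), and between WT and NLS Mut it was 0.04. CENPF, a large kinetochore protein, did not overlap between vector and NLS Mut (log2 fold change 0.18, adjusted p = 0.16), and CENPA, NUF2 and SPC25 overlapped in every comparison.

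Among kinesins and spindle proteins, 7 genes were counted and 2 were called. KIF11 (GENCODE 29, chr10:92593286-92655395, plus strand, with 4860 exonic bases) was at 81.5, 80.6 and 80.8 CPM in the vector libraries, 85.5, 86.05 and 88.03 with WT and 99.1, 102 and 101 with NLS Mut. The 3 groups were fully apart, in the order vector, WT, NLS Mut, and the libraries within a group lay close together. KIF11 rose with NLS Mut against vector, with a log2 fold change of 0.31 ± 0.06 (SE, edgeR adjusted p = 0.016), and WT differed from NLS Mut by -0.22 (adjusted p = 0.13). KIF18A (GENCODE 29, chr11:28020620-28108308, minus strand, with 4668 exonic bases) was at 34.05, 31.8 and 33.6 CPM in the vector libraries, 39.2, 35.9 and 39.7 with WT and 40.2, 42.3 and 48.5 with NLS Mut. It was also fully ordered by group, with a log2 fold change of 0.40 ± 0.09 (SE, edgeR adjusted p = 0.032) against vector with NLS Mut, the highest of the 44 genes, and of 0.21 (adjusted p = 0.37) with WT. KIF4A, which condenses and organises chromosomes and the central spindle, was above vector in every GRP78 library (log2 fold change 0.15 with WT and 0.19 with NLS Mut). TPX2, HMMR, DLGAP5 and KIF2C overlapped in all comparisons.

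Neither kinesin call held in every fit that left out a library. The log2 fold changes over these fits were 0.30 to 0.32 for KIF11 and 0.31 to 0.45 for KIF18A. The fits that lost a call, given next, called 0.0568% to 0.0933% of all genes higher, against 0.295% with all libraries. KIF11 lost its call without vector replicate 2 (log2 fold change 0.31, adjusted p = 0.10), vector replicate 3 (0.30, 0.095) or NLS Mut replicate 1 (0.32, 0.079), 2 (0.30, 0.15) or 3 (0.30, 0.11). KIF18A lost it without vector replicate 2 (0.36, 0.20), vector replicate 3 (0.40, 0.14) or NLS Mut replicate 1 (0.45, 0.068), 2 (0.41, 0.15) or 3 (0.31, 0.30). With a correction for GC content both also missed the threshold, KIF11 at 0.21 (adjusted p = 0.070) and KIF18A at 0.29 (adjusted p = 0.10). Of 12 alternative fits on all libraries, 10 called KIF11 and 8 called KIF18A.

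Cytokinesis divides the cell after anaphase. ANLN (GENCODE 29, chr7:36389806-36453791, plus strand, with 6012 exonic bases) was at 326, 317 and 295 CPM in the vector libraries, 347, 333 and 360.1 with WT and 350.0, 415 and 399 with NLS Mut. Every GRP78 library was above every vector library, and NLS Mut replicates 2 and 3 were the highest. ANLN rose against vector with NLS Mut, with a log2 fold change of 0.31 ± 0.06 (SE, edgeR adjusted p = 0.0084), against 0.15 (adjusted p = 0.31) for WT. It was the call that held with the GC correction (0.23, adjusted p = 0.011), but it was lost without vector replicate 3 (0.26, adjusted p = 0.095) or NLS Mut replicate 2 (0.25, 0.16) or 3 (0.28, 0.11). The fits that lost it called 0.0568% to 0.0754% of all genes higher. ECT2, which activates RhoA at the division plane, and RACGAP1, its partner at the central spindle, did not overlap between vector and NLS Mut, with log2 fold changes of 0.20 and 0.17 (adjusted p = 0.20 and 0.30, edgeR). KIF20A, a kinesin of the central spindle, was above vector in all libraries of both GRP78 groups (0.16 with WT and 0.15 with NLS Mut), and KIF23, which with RACGAP1 forms centralspindlin, had log2 fold changes of 0.15 and 0.22 in these comparisons.

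TOP2A, the topoisomerase that untangles sister chromatids, was at 427, 412 and 362 CPM in the vector libraries, 441, 425 and 437 with WT and 451, 482 and 450.3 with NLS Mut. The NLS Mut libraries were above the other 6, with a log2 fold change of 0.20 ± 0.06 (SE, edgeR adjusted p = 0.092) against vector, which was 0.11 (adjusted p = 0.30) after GC correction. MKI67, the Ki-67 proliferation antigen that coats mitotic chromosomes, was at 357, 373 and 328 CPM in the vector libraries, 371, 376 and 368 with WT and 387, 405 and 414 with NLS Mut. Again the NLS Mut libraries were the highest 3 (0.19 against vector, adjusted p = 0.11, edgeR). FOXM1, a transcription factor that activates G2/M genes, was at 52.99, 66.1 and 57.6 CPM in the vector libraries, 57.1, 57.1 and 52.3 with WT and 53.7, 56.99 and 60.1 with NLS Mut. Its groups overlapped throughout, and its log2 fold changes of -0.09, -0.05 and -0.04 (adjusted p = 0.76, 0.88 and 0.92, edgeR) with WT and NLS Mut against vector and between them all turned positive when both strand-specific counts were summed (0.05, 0.02 and 0.04).

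**Figure D3:**
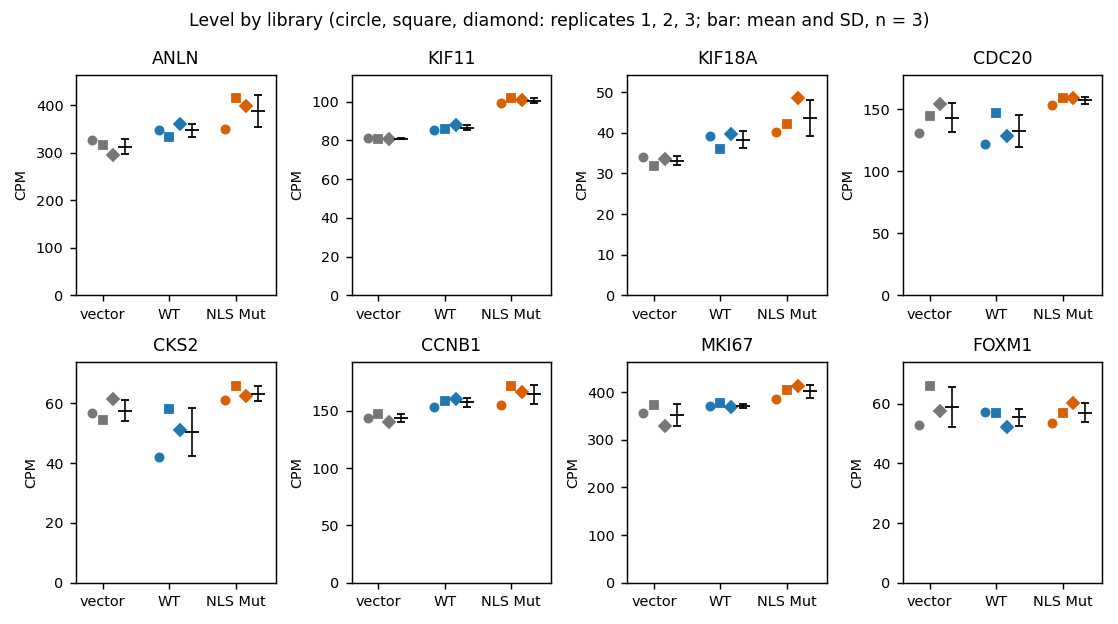
Level in CPM (vertical axes, from 0) of 8 mitosis and G2/M genes in each library; points are the 3 libraries of a group, and bars are the mean and SD (n = 3). KIF11, KIF18A and ANLN rose with NLS Mut against vector, CDC20 and CKS2 have their lowest libraries with WT, and the groups overlap for FOXM1.

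Levels per kilobase of exon, a scale for comparing genes, spanned a wide range. The length was that of all annotated exons of a gene merged, not of the transcripts present in these cells. The order of genes thus depends on the annotation too. Averaged over the 9 libraries, CKS2 was highest at 93.0 CPM per kb, followed by CDC25B at 72.3, CDC20 at 70.9, TOP2A at 67.1, UBE2C at 61.7 and CCNB1 at 60.7. The lowest of the 44 were SPC25, a subunit of the NDC80 complex, at 3.34 and CDC25C at 3.81 CPM per kb, which also had the highest coefficients of variation over the libraries (15.7% and 15.4%). Thus cyclin B1 was far above cyclin B2 (13.5 CPM per kb), and CDC25B above CDC25C.

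The libraries of 1 group did not all carry the pattern alike. The mean log2 deviation of the 44 genes from their own means was 0.02, 0.13 and 0.13 in NLS Mut replicates 1, 2 and 3, -0.05, -0.01 and -0.01 in the WT libraries and -0.09, -0.03 and -0.10 in the vector libraries. NLS Mut replicate 2 was the highest of the 9 libraries for 17 genes and replicate 3 for 18, and vector replicate 3 was the lowest for 16. The order of group means was vector, WT, NLS Mut for 25 of the 44 genes, and WT, vector, NLS Mut for 12. NLS Mut had the highest mean for those 37, WT for 6 and vector for 1, FOXM1. Without vector replicate 1, 10 members were called higher with NLS Mut against vector, and 3, ANLN, CENPE and TOP2A, with WT, while 2.38% and 2.65% of all genes were called higher in these comparisons. Without vector replicate 2 or NLS Mut replicate 1 the 1 member called with NLS Mut was ANLN (all genes: 0.0933% and 0.0856%). Without vector replicate 3 or NLS Mut replicate 2 or 3 no member was called (all genes: 0.0568%, 0.0569% and 0.0754%). Between WT and NLS Mut, leaving out vector replicate 1 gave 4 lower calls (CDC20, CKS1B, CKS2 and KIF11), with 0.932% of all genes called lower, and leaving out WT replicate 2 gave 2 (CDC20 and CKS2), with 0.351%.

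GC content moved with the comparisons against vector. GC content was taken over all transcript sequences of a gene. The 44 genes had a median of 44.9%, against 49.3% for all tested genes with a value. Across the 44 genes, which share their libraries and are not replicates, Spearman's correlation of log2 fold change with GC content was -0.61 with NLS Mut, -0.49 with WT and 0.10 between both GRP78 groups, and over 18187 genes it was -0.32, -0.29 and 0.02. The 22 members of lower GC content had a median of 0.20 with NLS Mut against vector and the 22 of higher GC content 0.10. Removing the trend with GC content from each library left medians over the 46 genes of 0.03 with WT, 0.13 with NLS Mut and -0.11 between them, and a correlation over the 44 of 0.11 for NLS Mut against vector. After this correction 1 member was called higher with NLS Mut against vector (ANLN), beside 0.595% of all genes, and 2 were called lower with WT than with NLS Mut, CDC20 (-0.25, adjusted p = 0.0090) and CKS1B (-0.24, adjusted p = 0.048), beside 1.02% of all genes. The correction also moved log2 fold changes of members with values in every library. With NLS Mut against vector it lowered them over 1.5 times for CDK1, TOP2A and CENPE, as given above. It did the same for CKS2 (to 0.06), NDC80 (to 0.09), AURKA (to 0.05), CCNB2 (to 0.0032) and MAD2L1 (to 0.15, adjusted p = 0.44, edgeR). NEK2 turned to -0.03 and FOXM1 was at -0.01. The correction raised the fold change as much for PLK1 (to 0.12), CDC25B (to 0.14) and INCENP (to 0.15). With WT against vector it lowered KIF11 to 0.03, KIF18A to 0.13, ANLN to 0.09, TOP2A to 0.05 and CENPE to 0.10.

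**Figure D4:**
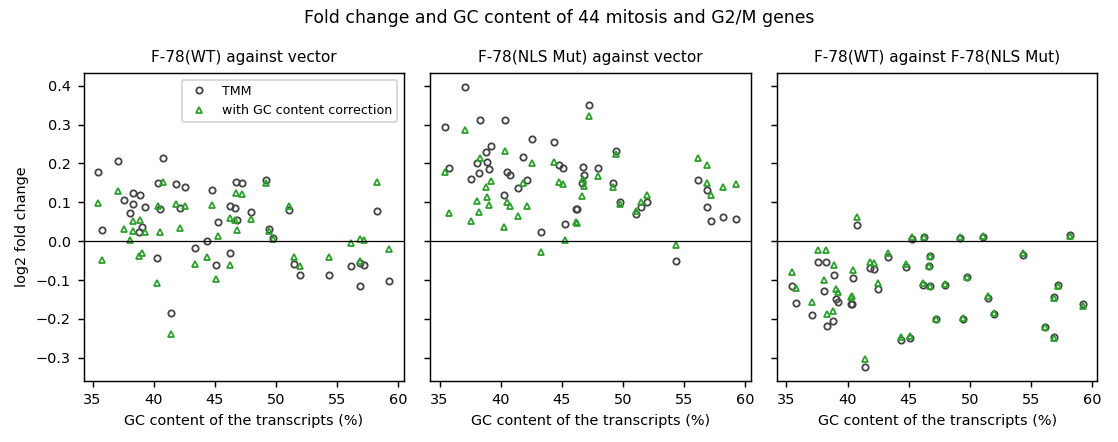
Log2 fold change (vertical axis) of 44 mitosis and G2/M genes against the GC content of their transcripts in percent (horizontal axis) in the 3 comparisons. Circles are the TMM-scaled fit and triangles the fit after GC correction. Genes of low GC content lie higher in both comparisons with vector, with less slope after correction, and no such slope is seen between WT and NLS Mut.

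Other cell-cycle lists were measured beside the 46 genes, in the same edgeR fit. Of 99 other mitosis genes, 2 were called, both higher with NLS Mut than with vector, where 0.295% of all genes were: SMC4 and NCAPD2, which are condensin subunits, with log2 fold changes of 0.31 and 0.24. The medians of that list were 0.02 with WT, 0.14 with NLS Mut and -0.09 between both. After GC correction, 2 were called higher with NLS Mut and 1 with WT against vector (all genes: 0.595% and 0.60%) and 2 lower with WT than with NLS Mut (all genes: 1.02%). Of 51 DNA replication and licensing genes, 6 were called higher with NLS Mut than with vector (median 0.22, all genes 0.295%), among them CDC45, MCM4, GINS1, MCM6 and MCM2 with log2 fold changes of 0.48, 0.41, 0.38, 0.37 and 0.35, and 4 were called lower with WT than with NLS Mut (median -0.18, all genes 0.204%): CDT1 (-0.55), CDC6 (-0.37), MCM2 (-0.36) and MCM7 (-0.27). After GC correction these counts were 10 and 10. These genes of S phase had medians farther from 0 than the mitosis genes in both comparisons with NLS Mut, a difference that was not tested. MCM2, a subunit of the replicative helicase, was at 87.9, 92.1 and 87.5 CPM in the vector libraries, 84.1, 92.4 and 88.4 with WT and 110.5, 118 and 112 with NLS Mut, and its NLS Mut libraries were above the other 6, which overlapped. None of 22 cell-cycle transcription factors was called by edgeR without GC correction (medians 0.03, 0.09 and -0.09), and with it 2 were called higher with NLS Mut and 1 with WT against vector. Of 18 CDK inhibitors and p53 targets, the medians were -0.02 with WT and -0.09 with NLS Mut against vector, and 0.0051 between both. With NLS Mut against vector 13 were below 0. At an unadjusted edgeR p under 0.05, 6 were lower and 0 higher there (all genes: 6.03% and 6.13%). In this list 1 gene was called, GADD45A, a stress-induced gene of the G2 checkpoint. It was called lower with WT than with vector (all genes: 0.343%) and than with NLS Mut (all genes: 0.204%). GADD45A was at 63.8, 75.6 and 78.3 CPM in the vector libraries, 48.1, 53.7 and 48.1 with WT and 66.99, 67.7 and 65.7 with NLS Mut. It fell with WT against vector by 0.54 on the log2 scale (adjusted p = 0.00068, edgeR) and was lower than with NLS Mut (-0.42, adjusted p = 0.012), and every WT library was below the other 6.

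**Figure D5:**
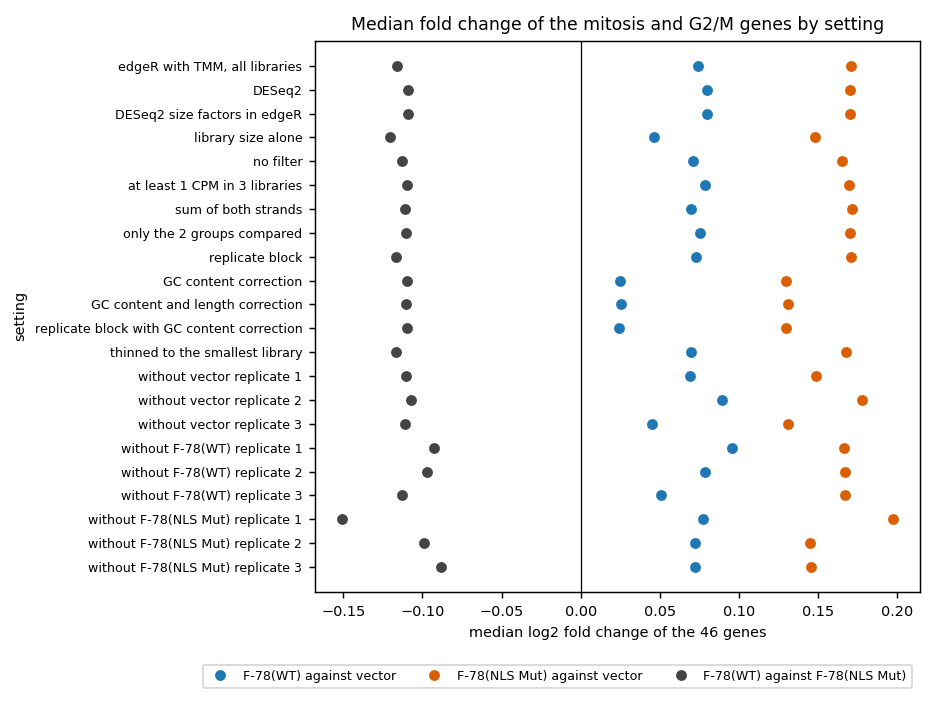
Median log2 fold change of the 46 genes (horizontal axis) in each comparison under the main fit, 12 alternatives on all libraries and 9 fits that leave out 1 library. The median with NLS Mut against vector stays above 0 and that of WT against NLS Mut below 0 in each fit, while that of WT against vector comes nearest to 0, at 0.02.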

How the data were processed

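RNA was sequenced from 9 H1975 libraries, 3 in each of the Vector, WT and NLS Mut groups, which the sample titles give with their replicate numbers. The submitters' processing notes name STAR 2.7.9a, DESeq2 1.36.0 and the build GRCh38.p14. The authors deposited 1 table per library of raw read counts per gene (unstranded, and for each strand), without normalization. The unstranded counts were used, since forward counts were 50.6% to 51.9% of both strands. Summary lines, 27.6% to 30.7% of reads, were left out. The annotation behind the counts is not given in the sources used here. Symbols came from a separate list of gene names, for 61445 of 61544 genes. GENCODE 29 gave exonic lengths and GC content for 58298 of them, so some gene ends can differ from RefSeq, which gave the promoters. A protein table was not used here.

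Genes were filtered with filterByExpr, scaled by TMM and tested with edgeR 4.0.16 (quasi-likelihood, 1 coefficient per group, limma 3.58.1, R 4.3.3), with Benjamini-Hochberg adjustment over all 18653 tested genes. The standard error was the log2 fold change divided by the root of F. The scripts were tested on 5 simulated data sets with known changes in NLS Mut. Against vector, edgeR called 19.8% of the genes changed by 0.3 on the log2 scale, and DESeq2 20.7%. For a change of 0.5 the shares were 48.7% and 46.9%. Unchanged genes made up 7.79% of the edgeR calls and 10.4% of the DESeq2 calls. Values in every library were given for HSPA5, for called members, for the 3 with the highest and the 3 with the lowest fold change in each comparison, and for 7 chosen genes (CCNB1, CDK1, PLK1, AURKA, MKI67, TOP2A and FOXM1). From each other list at most 5 called genes per comparison were named. Members, lists and roles were chosen with earlier results of these data known. A few further members were named as examples after their values were seen. The alternatives were DESeq2 1.42.0, other scalings and filters, the sum of both strands, the 2 compared groups alone, a replicate block, loess correction for GC content and length (span 0.3), thinning to 17671055 reads and leaving out each library. The set of 44 members with over 30 reads in some library was added after seeing the data. All replicate pairs differed by more than counting noise. The median coefficient of variation between libraries of a group was 11.2% per gene (edgeR's biological coefficient).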

Additional observations from a re-analysis of the deposited data

How the results depend on the processing

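Over the 12 alternatives on all libraries, the median log2 fold change of the 46 genes was 0.13 to 0.17 for NLS Mut against vector and -0.12 to -0.11 for WT against NLS Mut. For WT against vector it was 0.024 to 0.080, with 0.025 after the correction for GC content, 0.025 for GC content and length and 0.024 for the replicate block with GC content. Members called higher with NLS Mut against vector numbered 7 with DESeq2 and 1 with the GC correction, against 3. Members called lower with WT than with NLS Mut, 0 with edgeR, numbered 1 with DESeq2, 2 without the filter, 1 with only the 2 groups compared, 2 with the GC correction and 1 with GC content and length. Restricting the counts to 44 members changed none of these. Over all genes, calls higher with NLS Mut against vector were 55 in the main fit, 216 with DESeq2 and 111 with the GC correction. Calls lower with WT than with NLS Mut were 38, 135 and 190 in these fits, 214 with GC content and length and 25 to 241 over the 12 alternatives. Whether the member calls follow the number of calls over all genes was not tested. KIF18A also lost its call after thinning to the smallest library (0.36, adjusted p = 0.061, edgeR). The causes were not tested.

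Same-numbered libraries did not deviate together (correlations -0.02 to 0.06). This check cannot tell whether they were prepared together, which the labels do not say. The replicate block gave 3 members called higher with NLS Mut against vector and 2 lower with WT than with NLS Mut, and the replicate block with GC correction gave 4 and 3. Over all genes the block also gave more calls with WT against vector, 78 higher and 154 lower, where the main fit gave 40 and 64.

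Leaving out 1 library gave 0 to 10 members called with NLS Mut against vector, 0 to 3 with WT and 0 to 4 lower with WT than with NLS Mut. The medians were 0.13 to 0.20, 0.045 to 0.096 and -0.15 to -0.088. Fold changes near 0 turned direction. For WT against vector these ranges were -0.060 to 0.0069 for AURKA, -0.067 to 0.14 for BUB1B, -0.015 to 0.12 for CCNB2, -0.030 to 0.093 for CDK1, -0.11 to 0.022 for CKS1B, -0.16 to 0.0099 for FOXM1, -0.084 to 0.043 for NEK2 and -0.12 to 0.0029 for PLK1. For NLS Mut against vector they were -0.13 to 0.038 for FOXM1, -0.020 to 0.12 for INCENP, -0.047 to 0.090 for NEK2 and -0.0099 to 0.11 for PLK1. Between WT and NLS Mut they were -0.055 to 0.085 for CCNB2, -0.013 to 0.043 for CDC25B, -0.041 to 0.12 for CDCA8, -0.067 to 0.012 for FOXM1, -0.0098 to 0.13 for NDC80 and -0.11 to 0.0087 for NEK2.

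With all libraries, WT against vector turned for BUB1B (-0.026 by library size alone, -0.0014 without the filter, -0.040 with GC, -0.040 with GC and length, -0.035 with the block and GC), for CDK1 (-0.049, -0.049 and -0.051 in the 3 GC fits) and for PLK1 (0.0039 with GC, 0.0037 with GC and length, 0.0052 with the block and GC). NEK2 with NLS Mut was -0.028, -0.030 and -0.028 in the 3 GC fits, and FOXM1 with both strands summed was 0.051, 0.016 and 0.035 in the 3 comparisons. Of the 22 members with values in every library under the naming rule, no other turned direction in these fits.

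Library size alone, without TMM, gave 26 higher and 115 lower calls over all genes for WT against vector, 39 and 133 for NLS Mut against vector and 56 and 45 between both, and DESeq2 gave 133 and 129, 216 and 197 and 174 and 135. Over all genes, the calls higher and lower with WT against vector were 40 and 64 (8 to 133 and 18 to 211 over these alternatives, 8 to 526 and 11 to 730 when leaving out 1 library), with NLS Mut 55 and 93 (39 to 216 and 92 to 197, and 11 to 473 and 22 to 529) and between both 56 and 38 (56 to 266 and 25 to 241, and 20 to 203 and 7 to 185). Each of these highest leave-out counts came without vector replicate 1. Depth limits SPC25 and CDC25C, the scarcest counted members, and 3 libraries a group leave changes of the size of most members' intervals unresolved.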
